A study of Mus musculus with 2 samples.

Results

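Solitary p300 peaks were the 481 of the 6629 peaks in the deposited p300 list that had no other peak midpoint on their chromosome within 500 kb of their own midpoint. They made up 7.26% of the list. They were chosen by a measured value, the distance from each peak to its nearest neighbour, so that distance is given below as a description and without a test. The peaks came from 1 p300 ChIP-seq library, made with the C-20 antibody from dissected dorsal cerebral wall of Swiss Webster mouse embryos at E14.5, that is embryonic day 14.5. An input library of the same tissue served the authors as the control for peak calling and was not analysed here. Tissue of several embryos went into the sample, nothing was compared between conditions, and with 1 ChIP library there was no replicate, so no p-value is given. The peak list holds positions only, so the number of reads behind a single peak is not known from it. Shares are given with exact Clopper-Pearson 95% intervals, and medians with 95% intervals from order statistics. Both cover counting error only, because peaks of 1 library are not replicates.

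The co-activator p300 is an acetyltransferase that transcription factors bring to active enhancers, where it acetylates histones and other proteins. Enhancers often lie far from the gene they act on, and genes that control neural development commonly have several of them spread over a wide stretch of non-coding sequence. In the embryonic dorsal cerebral wall, which holds dividing neural progenitors as well as newly made neurons, basic helix-loop-helix, homeodomain and Nfi proteins are among the factors that bind such elements. A solitary peak is the opposite arrangement, a single bound site with a wide stretch free of called peaks on both sides.

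Sequences from the middle of 7 solitary peaks illustrate the motif results. The first 3 are the peaks farthest from any neighbour, and the other 4 had a listed neural transcription factor gene as the nearest protein-coding gene. Each line gives 200 bases of the plus strand of mm9, 5′ to 3′, and capitals mark a match on either strand to a motif of the neural factors described below or of CTCF. Matches to the AP-1, cAMP response element, REST, Ets, Nrf1 and Sp motifs are left in lower case.
Fam71e2 peak, chr7:4716984-4717183: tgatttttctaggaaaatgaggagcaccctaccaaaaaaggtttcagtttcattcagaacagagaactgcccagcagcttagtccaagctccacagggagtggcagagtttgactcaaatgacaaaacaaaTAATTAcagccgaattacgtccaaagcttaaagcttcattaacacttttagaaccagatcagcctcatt
Chst7 peak, chrX:19481776-19481975: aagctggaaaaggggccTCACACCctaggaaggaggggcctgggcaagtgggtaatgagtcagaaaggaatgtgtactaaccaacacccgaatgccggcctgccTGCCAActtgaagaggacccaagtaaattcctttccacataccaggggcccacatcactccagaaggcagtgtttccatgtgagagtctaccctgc
Gm4987 peak, chrX:44477526-44477725: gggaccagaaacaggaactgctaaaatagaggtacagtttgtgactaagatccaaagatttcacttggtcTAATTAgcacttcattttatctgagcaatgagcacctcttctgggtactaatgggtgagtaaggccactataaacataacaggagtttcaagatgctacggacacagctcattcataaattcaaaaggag
Myt1 peak, chr2:181493744-181493943: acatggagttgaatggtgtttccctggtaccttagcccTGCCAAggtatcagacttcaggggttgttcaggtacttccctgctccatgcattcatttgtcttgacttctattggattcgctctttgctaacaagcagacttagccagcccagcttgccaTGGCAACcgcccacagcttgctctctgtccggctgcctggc
Dmrta1 peak, chr4:89317592-89317791: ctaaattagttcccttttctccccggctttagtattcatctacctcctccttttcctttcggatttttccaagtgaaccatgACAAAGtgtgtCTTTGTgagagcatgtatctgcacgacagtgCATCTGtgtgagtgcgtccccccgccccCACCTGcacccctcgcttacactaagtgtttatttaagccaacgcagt
Egr3 peak, chr14:70391828-70392027: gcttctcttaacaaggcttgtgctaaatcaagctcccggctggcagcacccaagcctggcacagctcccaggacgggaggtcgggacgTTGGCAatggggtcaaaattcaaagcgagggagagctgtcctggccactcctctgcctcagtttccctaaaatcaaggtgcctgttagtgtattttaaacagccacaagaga
Rorb peak, chr19:19381085-19381284: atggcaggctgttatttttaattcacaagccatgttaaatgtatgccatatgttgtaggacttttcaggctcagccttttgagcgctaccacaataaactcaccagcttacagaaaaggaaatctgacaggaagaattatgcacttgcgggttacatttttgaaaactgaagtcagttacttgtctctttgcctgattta

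In these stretches the capitals of the Fam71e2 and Gm4987 peaks are the homeodomain core TAATTA. The Dmrta1 peak holds the Sox core ACAAAG once on each strand, then the E-box CATCTG bound by Neurod and Neurog proteins, then the E-box CACCTG of Zeb proteins. The Nfi site TTGGCA, or TGCCAA when read on the other strand, stands in the Chst7, Myt1 and Egr3 stretches, and the Rorb stretch holds no match to these motifs. A match is a description of the letters and does not show that a factor was bound there.

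Among solitary peaks the distance to the nearest neighbouring midpoint ran from 500.356 kb to 12003.4 kb, with a median of 746.447 kb and quartiles of 593.059 and 1027.58 kb. Among the other 6148 peaks the median was 41.4 kb. Of the solitary peaks, 130 were over 1000 kb from any other peak, 22 over 2000 kb and 4 over 4000 kb. The 500 kb limit falls in a continuous range of distances. Just inside it were a pair of peaks in introns of Phlpp1 and Bcl2 that were each other's nearest neighbour at 500.983 kb. Just outside it were a pair on chromosome 11 that were 497.945 kb apart and a peak upstream of the thyroid hormone deiodinase gene Dio2 at 496.685 kb.

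Some solitary peaks followed one another along a chromosome. Neighbouring peaks share a gap, so these runs are not independent of the rule, and no expected number was computed. Of the 481, 206 had no solitary peak next to them, 92 pairs were consecutive, and 91 peaks formed 28 runs of 3 or more, the longest with 5. They covered 0.499 Mb of sequence, yet 27.3% of the assembled bases of the 20 chromosomes, or 696.8 of 2556 Mb, had a solitary peak as the nearest one. Only 4 lay within 500 kb of a chromosome end. Under 90% assembled bases within 500 kb were found for 7 of 481 solitary peaks, a larger share than the 44 of 6148 other peaks.

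The X chromosome had the highest share of solitary peaks, 17 of 76 or 22.4% (13.6 to 33.4%), against 464 of 6553 or 7.08% (6.47 to 7.73%) on all autosomes. It also had the fewest peaks of any kind, 46.9 per 100 Mb, where autosomes ranged from 209.7 on chromosome 10 to 348.0 on chromosome 5. Per 100 Mb the X chromosome held 10.5 solitary peaks, below the autosomal range of 12.3 to 29.2. On autosomes the share was highest on chromosome 10, with 37 of 266 or 13.9%, and lowest on chromosome 2, with 22 of 579 or 3.80%. These shares are counted from the peak spacing that the rule used, so they are a description and no test.

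**Figure D1:**
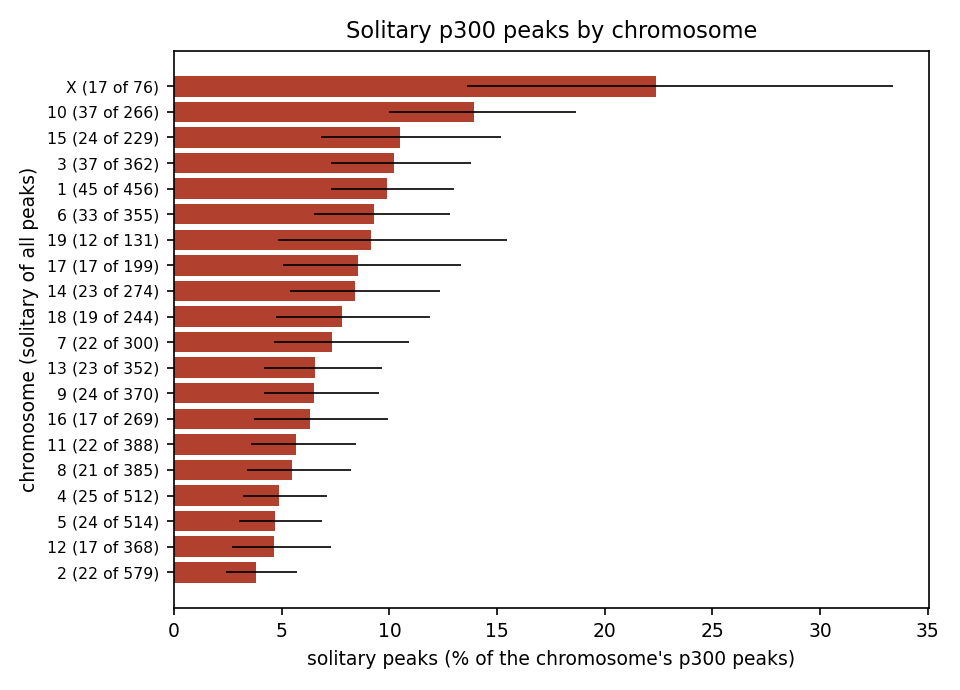
Share of each chromosome's p300 peaks that were solitary, in percent, with exact 95% intervals as lines and the counts beside each name. Chromosome X leads with 22.4% and chromosome 2 is lowest with 3.80%.

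Of the 10 most isolated peaks, 7 were on the X chromosome. The farthest from any neighbour was peak 5499 at chr7:4716700-4717468, in an intron of Fam71e2, which was 12003.4 kb from the next peak and the first on its chromosome. That stretch was not poor in genes, since 46 protein-coding start sites lay within 500 kb of it. Next came a peak 154.8 kb upstream of Chst7, which encodes a carbohydrate sulfotransferase, at 6661.84 kb from its neighbour, and one 668.1 kb upstream of Gm4987 at 4584.09 kb. Peaks within Il1rapl2, Lamp2, Pcdh19 and Mid1 followed on the same chromosome. Il1rapl2 is an interleukin 1 receptor accessory-like gene, Lamp2 encodes a lysosomal membrane protein, Pcdh19 a protocadherin and Mid1 a ubiquitin ligase on microtubules. Their nearest neighbours were 4153.34, 3939.36, 3463.85 and 2866.47 kb away. The autosomal members of the 10 beside Fam71e2 were a peak 650.6 kb upstream of Cntnap5a, of the neurexin-related contactin-associated family, and one 33.2 kb upstream of the olfactory receptor gene Olfr827.

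Sequence that can take a uniquely placed read was scarcer around solitary peaks. The authors kept uniquely aligned reads of 36 bases, so words of 36 bases were sampled and those with a single place in the assembly were called unique. Inside the peaks the median share of such words was 100% for solitary and other peaks alike. Within 500 kb the median was 88% (87 to 89%) for solitary peaks and 92% (92 to 92%) for the others. The share fell below 80% around 73 solitary peaks, or 15.2% (12.1 to 18.7%), against 3.38% (2.95 to 3.87%) of the others. Among the 10 most isolated peaks it was low around those of Fam71e2 (77%), Chst7 (73%), Olfr827 (76.5%) and Mid1 (71.8%). Around those of Gm4987, Il1rapl2, Lamp2, Cntnap5a and Pcdh19 it was 82% or more. The part of this in the isolation of the peaks was not tested. Main comparisons of gene density, listed factors, width, GC content and the common motifs were therefore also made with the 408 solitary peaks that had at least 80% unique words around them, and separately with the 464 on autosomes.

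Larger shares of solitary peaks than of other peaks had gene-free or gene-dense surroundings. The median number of protein-coding start sites within 500 kb was 5 (5 to 7) for solitary and 6 (5 to 6) for other peaks. No such site lay within 500 kb of 52 solitary peaks, or 10.8% (8.18 to 13.9%), against 6.73% (6.12 to 7.39%) of other peaks. At the opposite end, 20 or more sites surrounded 70 solitary peaks, or 14.6% (11.5 to 18.0%), against 8.39% (7.71 to 9.11%). The middle class of 6 to 19 sites held 34.9% (30.7 to 39.4%) of solitary and 42.7% (41.4 to 43.9%) of other peaks, and for these 3 classes the intervals did not overlap. Peaks with a neighbour at 50 to 500 kb had 0 sites in 8.60% (7.59 to 9.69%), 6 to 19 in 41.1% (39.3 to 42.9%) and 20 or more in 6.90% (5.99 to 7.90%), and against these only the last class was apart from the solitary interval. Among peaks with at least 80% unique words around them the shares with 20 or more sites were 15.2% (11.9 to 19.1%) and 8.23% (7.55 to 8.96%), while those with none were 9.31% (6.68 to 12.6%) and 6.60% (5.98 to 7.26%), with overlapping intervals.

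**Figure D2:**
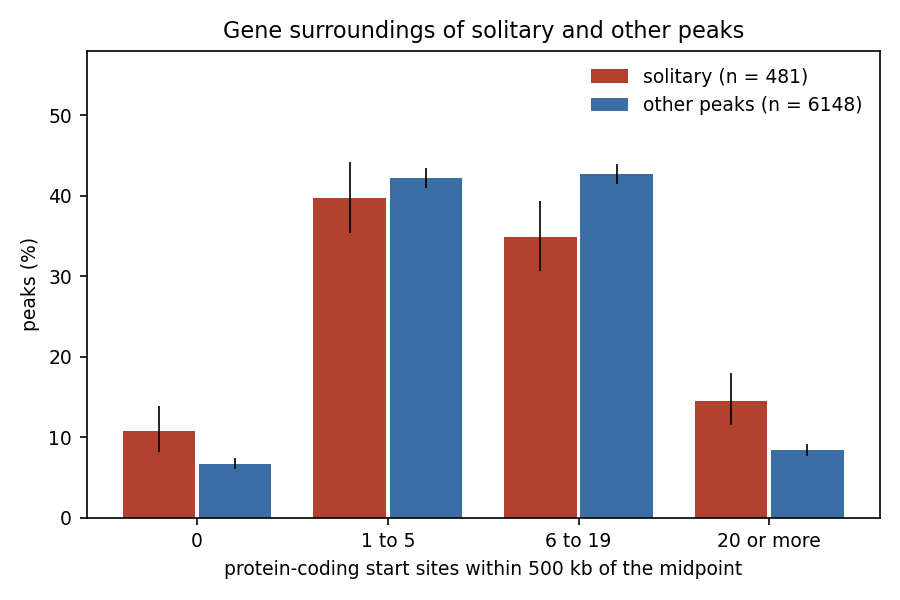
Percentage of peaks by the number of protein-coding start sites within 500 kb of the midpoint, for 481 solitary and 6148 other peaks, with exact 95% intervals as lines. Solitary peaks take larger shares of the classes with 0 sites (10.8% against 6.73%) and with 20 or more (14.6% against 8.39%).

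The gene-rich end held peaks in several dense gene neighbourhoods. Peaks close to start sites and over exons had been filtered from the list, so isolation there is only among the peaks that remained. A peak near Asgr1, a hepatic asialoglycoprotein receptor gene, had 65 protein-coding start sites within 500 kb, and one near Kdm6b, which encodes a histone H3 lysine demethylase, had 59. These were consecutive on chromosome 11 and were each other's nearest neighbour at 649.993 kb. A peak 10.03 kb upstream of Fosb, a neuronal activity-induced AP-1 subunit gene, had 54 start sites within 500 kb and was 2331.43 kb from the nearest peak, with 57.8% GC. A peak 12.7 kb from Hist1h4h in a histone gene cluster had 52.

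At the gene-poor end the nearest protein-coding start site was up to 1657.85 kb away. The most remote of the solitary peaks had Cdh9, Pcdh9, Ncam2 and Epha7 as nearest protein-coding genes, at 1657.85, 1584.09, 1460.5 and 1455.13 kb. The first 3 encode cell adhesion proteins and the last an ephrin receptor. Remote solitary peaks also lay 1021.76 kb from Pcdh7 and 1017.36 kb from Lrrtm3, a synaptic adhesion gene. A nearest gene is a matter of position alone, and no target was measured.

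Over all solitary peaks the median distance to the nearest protein-coding start site was 68.5 kb (56.5 to 83.0 kb). For other peaks it was 83.8 kb (80.5 to 86.8 kb), with overlapping intervals. Of solitary peaks 58.2% (53.7 to 62.7%) were over 50 kb away, against 64.1% (62.9 to 65.3%) of other peaks. To the start of any gene the medians were 39.5 kb (32.7 to 47.2 kb) and 43.5 kb (41.9 to 45.1 kb), also overlapping. A protein-coding gene held 191 solitary peaks, or 39.7% (35.3 to 44.2%), against 42.9% (41.7 to 44.2%) of the others. Genes over 300 kb long held 61 of them, or 12.7% (9.84 to 15.99%), against 18.0% (17.02 to 18.96%). For peaks with a neighbour at 50 to 500 kb the share was 16.1% (14.76 to 17.50%), which overlapped the solitary interval. Among the long hosts of solitary peaks were Dmd, the dystrophin gene, the neurexin-related gene Cntnap2, the neuregulin gene Nrg3 and its receptor gene Erbb4. Pcdh15 held 2 solitary peaks.

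The nearest gene of a solitary peak was less often on a hand-written list of neocortical transcription factor genes than that of another peak. The list does not hold every such gene. It took in 166 of 22208 protein-coding genes, a lower share than either group of peaks had. For solitary peaks the intervals given below without the gene Ctnnd2 and by distinct nearest genes include that share. Of 481, 9 had a listed gene nearest, or 1.87% (0.859 to 3.52%), against 469 of 6148 or 7.63% (6.98 to 8.32%) of the other peaks. The list of 168 genes holds Ctnnd2, which encodes a catenin of cell junctions and not a transcription factor, and without it the shares were 7 peaks or 1.46% (0.587 to 2.98%) and 7.63%. Other peaks share genes, since several near neighbours can have the same nearest gene. Counted by distinct nearest genes the shares were 8 of 466 or 1.72% (0.744 to 3.35%) and 112 of 2780 or 4.03% (3.33 to 4.83%), with intervals that overlap slightly. With at least 80% unique words around the peak they were 2.21% (1.01 to 4.15%) and 7.66% (6.996 to 8.366%).

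The 7 solitary peaks at listed transcription factor genes differed in their distance from the gene. The closest, 4.193 kb upstream of Myt1, a zinc finger gene of neuronal differentiation, was 1228.26 kb from the nearest other peak. Within 500 bp of sequence around its midpoint it had 1 CATCTG, 1 TTGGCA and 2 matches to the Rfx site GTTGCCA. The peak 37.2 kb upstream of Dmrta1, a DM domain factor gene, was 1448 bp wide and had 2 CATCTG. A peak 85.3 kb upstream of Egr3, a neuronal activity-induced zinc finger gene, lay within the gene Pebp4. The Hey2 peak was 137.7 kb upstream of this Notch effector gene, and had no match to the E-boxes CATCTG and CAGCTG, to the homeodomain core or to the Nfi site. An St18 peak lay 247.5 kb downstream of the start of St18, a relative of Myt1, inside the gene and over an annotated exon. The Rorb peak, 305.6 kb upstream of a nuclear receptor gene expressed in cortical layer neurons, was 2426.99 kb from its neighbour and had 1 CATCTG. A peak 556.5 kb upstream of the zinc finger gene Klf4 had 2.

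Signalling genes were the nearest gene of another 9 solitary peaks. For the Wnt and Bmp pathways they included peaks 4.003 kb from the ligand gene Wnt9a, 16.4 kb into the transducer gene Smad1, 69.7 kb from the Wnt antagonist gene Dkk2, and 151.3 and 451.2 kb from the ligand gene Bmp2. The Bmp2 peaks were upstream and downstream of the gene and 602.5 kb apart. In other pathways, one was 61.7 kb into Maml2, a Notch co-activator gene, one 93.5 kb from Spred2, an inhibitor of Ras signalling, and one 535.8 kb into Nrg3. Wnt and Bmp genes were nearest to 1.25% of solitary and 0.797% of other peaks, a difference of a few peaks.

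Cell adhesion genes were the nearest gene of 22 solitary peaks, or 4.57% (2.89 to 6.84%), against 3.30% of the other peaks, with overlapping intervals. Counted by distinct nearest genes they were 19 of 466 for solitary and 44 of 2780 for other peaks, a larger share for solitary peaks, given without an interval. These 22 peaks belonged to 19 genes, 10 of them lay inside the gene, and their median distance from its start site was 394.0 kb. At most 1 protein-coding start site was within 500 kb of 18 of them. Among them were classical cadherin genes (Cdh9, Cdh12, Cdh18 and Cdh20), protocadherin genes (Pcdh7, Pcdh9, Pcdh10, Pcdh15 and Pcdh19) and the immunoglobulin superfamily genes Chl1 and Ncam2. The Pcdh10 peak, 7.23 kb from the start site, had no other peak within 2078.11 kb. Axon guidance genes were nearest to 4 solitary peaks or 0.832%, against 2.81% of others, and by distinct genes they were 4 of 466 and 41 of 2780. Glutamate and GABA receptor genes were nearest to 1 solitary peak.

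The lists were also described from the side of the genes. Whether a gene's nearest peak is solitary depends on the peak spacing that chose these peaks, so this is no separate support. A solitary peak was the nearest p300 peak for 6640 of 22208 protein-coding genes, or 29.9%, and it was within 500 kb for 17.5%. Among listed transcription factor genes this held for 21 of 166, or 12.7%, and without Ctnnd2 for 20 of 165. Besides genes already named, these included the proneural gene Neurod4 (35.9 kb from peak 722, the one beside Olfr827), Meis3 (40.2 kb), Scrt1 (76.3 kb) and Tcf12 (136.4 kb). The Tcf12 gene, whose product pairs with proneural factors, holds the second widest solitary peak in an intron, although another start site is nearer to that peak. The median listed transcription factor gene was 48.0 kb from its nearest peak of any kind, against 262.2 kb over all protein-coding genes.

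For cell adhesion genes the share with a solitary nearest peak was 52 of 125, or 41.6%. Of those 52, 24 were clustered protocadherin genes that all had peak 2861 on chromosome 18 as the nearest, and without the clustered genes the share was 28 of 101, or 27.7%. For olfactory and vomeronasal receptor genes it was 690 of 1424, or 48.5%, although only 38 different solitary peaks were involved and 161 of the genes lay within 500 kb of theirs. For keratin and skin barrier genes it was 70 of 129, or 54.3%, with 7 different peaks. Hox genes, which are silent in the forebrain, had 0 of 39, ribosomal protein genes 27 of 81 and blood and immune genes 64 of 159. Wnt and Bmp genes, with 19 of 70 or 27.1%, were close to the 29.9% of all genes. The share was 13 of 62 or 21.0% for Fgf and receptor tyrosine kinase genes and 4 of 23 or 17.4% for Notch pathway genes. It was 15 of 78 or 19.2% for axon guidance genes and 11 of 47 or 23.4% for glutamate and GABA receptor genes. Genes in clusters share a peak, so these shares are descriptions of position and carry no interval.

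**Figure D3:**
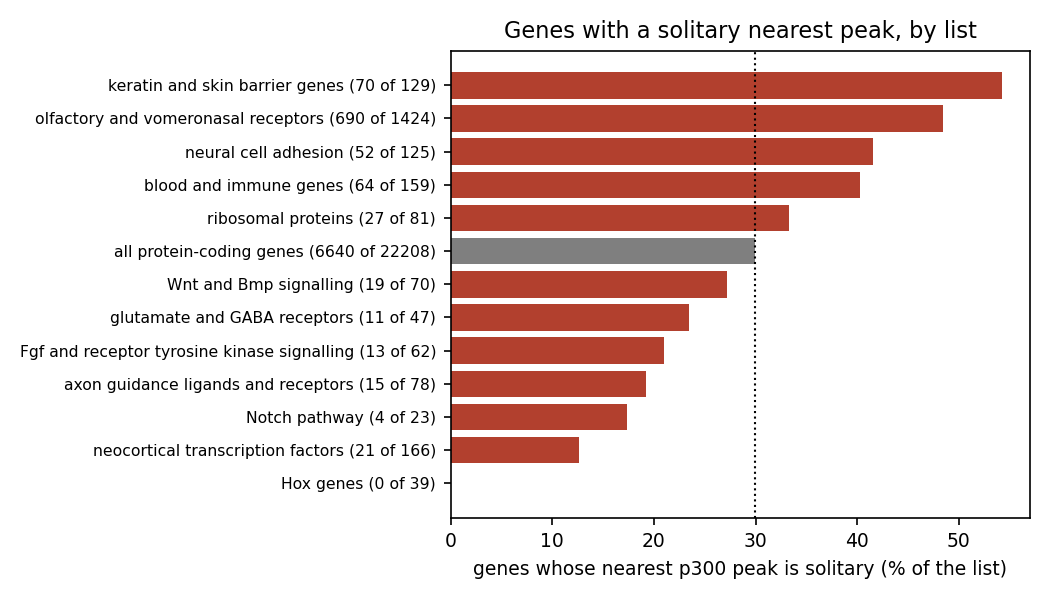
Percentage of the genes in each list whose nearest p300 peak was solitary, with counts beside the names. The dotted line and grey bar mark all protein-coding genes at 29.9%, and transcription factor genes stand at 12.7% and keratin genes at 54.3%.

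Solitary peaks were narrower and poorer in G and C than other peaks. Their median width was 955 bp (928 to 991 bp), against 1022 bp (1014 to 1028 bp). For peaks with a neighbour at 50 to 500 kb it was 986 bp (976 to 1001 bp), which overlapped the solitary interval. For those with a neighbour under 50 kb it was 1050 bp. The width comes from the same peak calls as the distances. The widest solitary peak, 3453 bp, lay near Hist1h4h, and the next were the Tcf12 peak of 3065 bp and the Kdm6b peak of 2400 bp. Median GC content was 42.7% (41.7 to 43.7%) in solitary and 45.4% (45.1 to 45.6%) in other peaks, and within 500 kb it was 41.3% and 43.2%. Without the X chromosome the median widths were 963 and 1023 bp and the GC contents 42.9% and 45.4%, and with at least 80% unique words they were 952 and 1022 bp and 43.1% and 45.5%.

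Motifs of neural transcription factors were searched on both strands in the middle 500 bp of every peak and of 5116421 windows of the same length across the genome. The Nfi dimer, a pair of inverted Nfi sites with 5 bases of any kind between them, can overlap the Nfi site, and the other short motifs were counted independently of one another. The Neurod and Neurog E-box CATCTG was present in 289 solitary peaks, or 60.1% (55.6 to 64.5%), against 57.1% of other peaks and 33.8% of genome windows. TTGGCA was in 43.7% of solitary peaks, 42.2% of others and 23.0% of windows, and TAATTA in 33.9%, 31.1% and 16.9%. For these 3 motifs solitary and other peaks had overlapping intervals, and both groups were above the genome.

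The E-box with a GC core, CAGCTG, and the Zeb-type E-box were less common in solitary peaks. CAGCTG, bound by many basic helix-loop-helix dimers, was in 164 or 34.1% (29.9 to 38.5%) of solitary and 40.1% (38.9 to 41.3%) of other peaks, with 17.0% of genome windows. The Zeb-type E-box CACCTG was in 119 or 24.7% (20.9 to 28.8%) and 30.3% (29.2 to 31.5%), with 26.7% of windows. For both the intervals of solitary and other peaks did not overlap, but those of peaks with a neighbour at 50 to 500 kb, at 39.6% (37.8 to 41.4%) and 28.2% (26.5 to 29.9%), overlapped the solitary ones. Within 3 classes of GC content (cut at 42.2% and 48.3%) the gap for CAGCTG was smaller in the lower 2 classes and not in the highest. The shares were 27.9% and 30.8% in the lowest class, 36.84% and 37.97% in the middle and 44.0% and 50.9% in the highest, with overlapping intervals in each. For CACCTG they were 19.7% and 21.6%, 25.7% and 28.4%, and 35% and 40.4%, again overlapping. Among peaks with at least 80% unique words around them CAGCTG was in 33.3% (28.8 to 38.1%) and 40.4% (39.2 to 41.7%).

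For the other motifs the intervals of solitary and other peaks overlapped. The Rfx site GTTGCCA was in 8.94% of solitary peaks and 9.69% of others, against 4.55% of genome windows. The T-box site GGTGTGA was in 9.56% and 9.50% against 6.42%, the Pou octamer ATGCAAAT in 6.44% and 7.69% against 4.36%, and the Nfi dimer in 3.33% and 4.72% against 0.742%. The Sox cores ACAAAG and ACAATG, in 41.4% and 28.7% of solitary peaks, were about as common in genome windows, at 39.5% and 28.7%. The Sp site GGGCGG was in 9.56% (7.09 to 12.6%) of solitary and 12.3% (11.5 to 13.2%) of other peaks against 4.58% of windows, and the Mef2 site in 4 solitary peaks or 0.832% (0.227 to 2.12%) and 1.51% (1.22 to 1.85%) against 1.10%. The AP-1 site TGANTCA was in 16.8% of solitary peaks, 14.8% of others and 14.3% of windows. The cAMP response element TGACGTCA and the Ets site CCGGAAGT were each in 0 of 481, which at 3 counts of the total allows a share of up to 0.624%, against 0.439% and 0.342% of other peaks. Of 4 common neural motifs (the Neurod/Neurog E-box, the GC-core E-box, the homeodomain core and the single Nfi site), 48 solitary peaks or 9.98% (7.45 to 13.0%) had none, against 9.40% of others, and 12 had all 4.

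**Figure D4:**
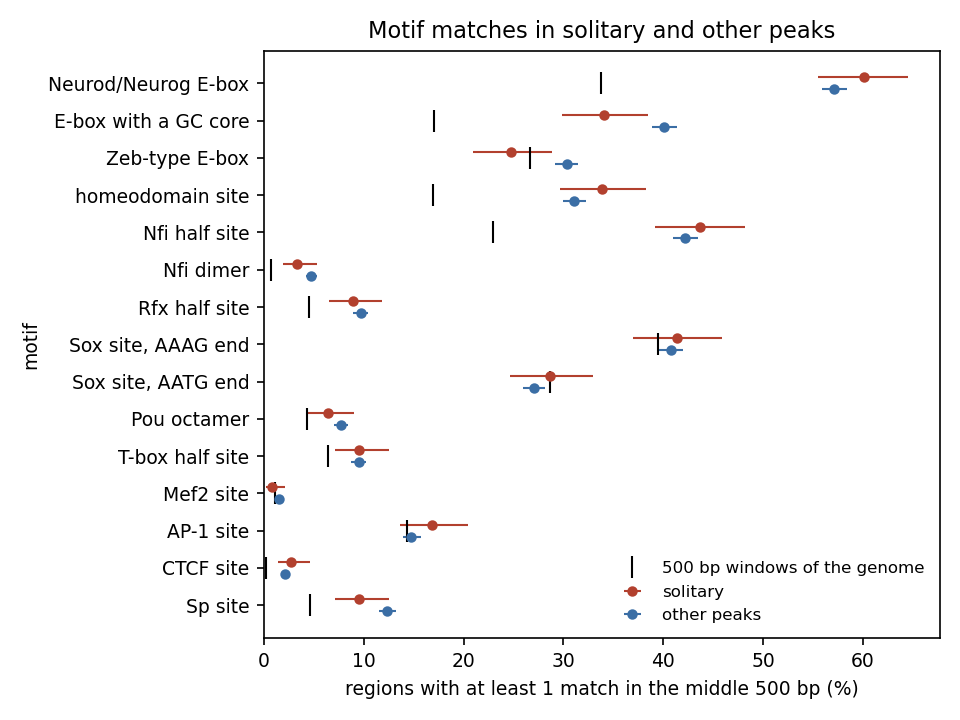
Percentage of peaks with at least 1 match in the middle 500 bp for 15 motifs, with exact 95% intervals as lines, for solitary and other peaks, and as vertical ticks for 500 bp windows of the genome. The Neurod/Neurog E-box leads in solitary peaks with 60.1% against 33.8% of windows.

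Within solitary peaks the same motifs were concentrated at the midpoint. In the 100 bp on either side of it CATCTG occurred at 2.68 matches per kb (2.36 to 3.03), and at 1 to 2.5 kb from it at 0.812 per kb, a ratio of 3.30. In other peaks the central density was 2.30 per kb (2.21 to 2.38) and the ratio 2.63. Central densities over flanking ones gave 2.97 for TAATTA in both groups, 2.57 and 2.59 for TTGGCA, and 2.81 and 3.02 for CAGCTG. The Zeb-type E-box was not denser at the centre of solitary peaks, with 0.665 per kb (0.512 to 0.850) in the centre and 0.680 in the flanks, whereas other peaks had 0.922 (0.869 to 0.978) and 0.738. The curves of motif density by distance fall to the flanking level within about 500 bp.

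**Figure D5:**
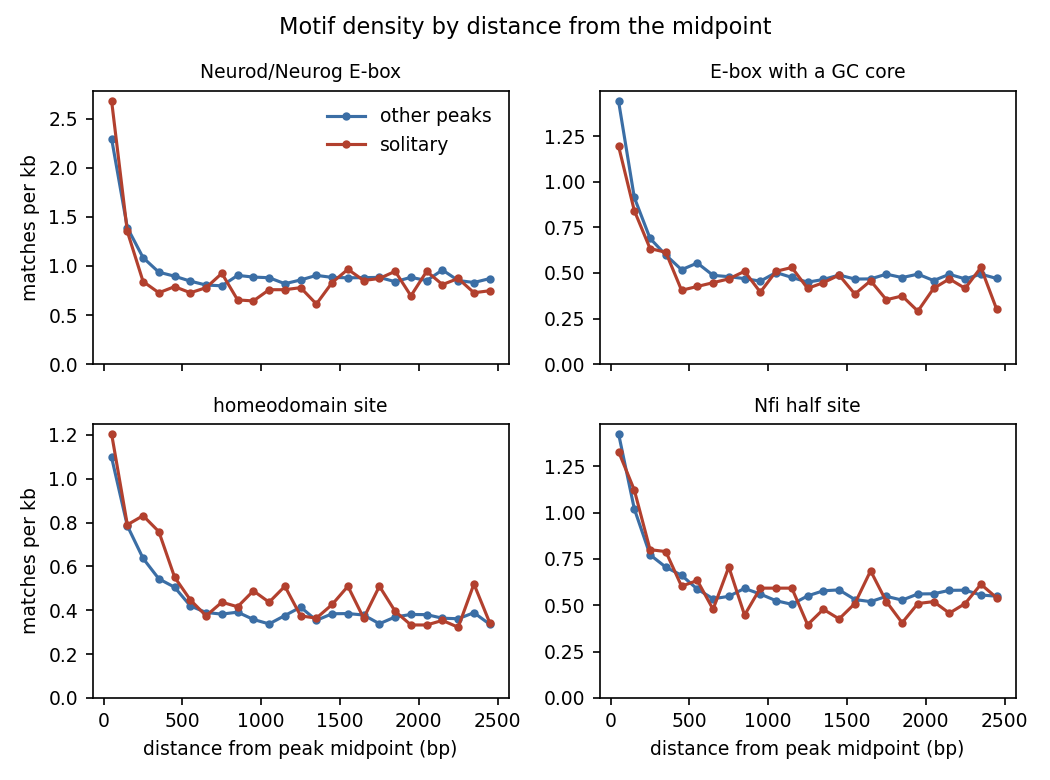
Matches per kb for 4 motifs in 100 bp steps of distance from the peak midpoint, both sides combined, for solitary and other peaks. In solitary peaks the Neurod/Neurog E-box falls from 2.68 per kb at the midpoint to 0.812 per kb beyond 1 kb.

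Sequence content varied among solitary peaks with their gene surroundings. Median GC content was 37.0% in the 52 peaks with no protein-coding start site within 500 kb, 40.3% in the 191 with 1 to 5, 45.0% in the 168 with 6 to 19 and 49.1% in the 70 with 20 or more, and other peaks had a like order from 38.5% to 52.7%. TAATTA went the other way, from 40.4% (27.0 to 54.9%) of peaks at the gene-free end to 17.1% (9.18 to 28.0%) at the gene-rich end. Other peaks fell likewise, from 46.1% to 20.9%. CATCTG was most frequent with 6 to 19 sites, in 72.6% (65.2 to 79.2%) of solitary against 59.7% (57.8 to 61.6%) of other peaks, and least with 1 to 5, in 49.7% (42.4 to 57.0%) against 54.6% (52.7 to 56.6%). CAGCTG in the class with 6 to 19 was in 29.8% (23.0 to 37.3%) of solitary and 44.2% (42.3 to 46.1%) of other peaks. These classes were compared after the values had been seen.

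The CTCF motif, of the architectural factor that marks insulators and loop anchors, was in 13 solitary peaks, or 2.70% (1.45 to 4.58%), against 2.15% of other peaks and 0.241% of genome windows. Within 100 bp of the midpoints of solitary peaks there were 9 matches. All 13 peaks had 6 or more protein-coding start sites within 500 kb. That is 5.46% (2.94 to 9.16%) of the 238 solitary peaks with such surroundings, against 3.12% (2.54 to 3.79%) of other peaks there. With 0 to 5 sites it was 0 of 243, which at 3 counts of the total allows a share of up to 1.23%, against 1.13% (0.784 to 1.58%) of other peaks. The CTCF match in the most gene-dense place was near Eif4b, a translation initiation factor gene, with 43 start sites, and another stood near Dio3, a deiodinase gene in an imprinted region.

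The 10 elements that the study tested as reporters, elt1 to elt10, all matched a peak, and 0 of them was solitary. Of all peaks 7.26% were solitary, so a count of 0 in 10 does not set these elements apart. Their peaks had a neighbour at 7.473 to 130.897 kb.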

How the data were processed

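Reads of 36 bases were placed on mm9 by the authors with ELAND, allowing up to 2 mismatches and a single location. Peaks were called by MACS (1.4 per the labels) relative to the input. By the authors' filters the list leaves out promoter-proximal sites (2.5 kb or nearer), and it was also filtered for exons and ambiguous mapping. The deposited file from this ChIP library gives start and end positions on mm9 without a score, so precision per peak is unknown.

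Distances between peak midpoints were computed per chromosome. Genes were those of GENCODE vM1 on NCBIM37, the assembly mm9 is built on (37273 genes, of which 22367 are protein-coding), with 1 start site per gene, from the transcript whose coding sequence is longest. 19 consensus motifs were searched in the middle 500 bp. Genes were grouped in 12 lists of neural, signalling, adhesion, receptor and control genes. Words of 36 bases were sampled every 50 bp in peaks and every 10 kb around them. Analysis used Python 3.11.15, numpy 2.4.6, scipy 1.17.1, pandas 2.3.3, numba 0.67.0 and matplotlib 3.10.9, with scripts tested on simulated data.

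The members, lists and motifs were chosen with earlier results of these data known. By rule, the text names the 10 most isolated and 5 widest peaks, 5 on each side of the limit, those whose nearest gene is a listed transcription factor or signalling gene, and elements elt1 to elt10. A few peaks under this rule are not reported here. Peaks named for cell adhesion, gene-rich or gene-poor surroundings or the CTCF motif, and the comparisons on autosomes, unique sequence, GC classes and gene density, were chosen after the values were seen. Alternatives changed the isolation distance, start sites, genes and motif window.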

Additional observations from a re-analysis of the deposited data

How the results depend on the processing

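Of 122 alternative values for 36 results, 87 stayed within the spread of the value reported and 35 moved beyond it. The number of solitary peaks was 1116 with an isolation distance of 250 kb and 130 with 1 Mb. The share over 50 kb from the nearest start site was 43.5% with start sites of all genes and 48.2% with every protein-coding transcript start. Over the whole peak the motif shares rose to 72.8% for the Neurod/Neurog E-box, 47.6% for the E-box CAGCTG, 50.1% for the homeodomain site and 60.9% for the Nfi site, and in the middle 200 bp they were 41.6, 19.5, 19.1 and 23.1%, since the sequence searched is longer or shorter. With 1 Mb the Neurod/Neurog E-box share was 53.1%, and the cause was not tested. The shares nearest to a listed gene moved under 0 of the alternatives tried for them. Every list was recounted with a smaller gene set, which excluded genes named only after a model or clone. The transcription factor list was also recounted in the peak subsets given next. No list share was recomputed at another isolation distance, so dependence on that distance was not tested. The values without the X chromosome and with at least 80% unique words, chosen after seeing the data, stayed within the spread. No paired analysis was possible because there was 1 ChIP library. The peak list has no score, so a stricter list could not be made, and the depth limits of single peaks are unknown.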
